A study of Mus musculus with 50 samples.

Results

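The genes described here encode RNA-binding proteins that hold maternal mRNA silent or stable in the mouse oocyte: Msi1 and Msi2, Pum2, Dazl, Ybx1 and Ybx2, Zar1 and Zar1l, and Lsm14b. The 9 members were given by symbol, and 8 of them were analysed among the 16614 genes of the count table; Msi1 is not analysed here. Single oocytes from 4 floxed mice (26 oocytes) and 4 mice with a conditional knockout of Zfp36l2 (24 oocytes) were sequenced one library per cell. Floxed mice carry the targetable allele (F/F in the labels) and served as controls, and the knockout is labelled cKO; the sources used here do not name the Cre driver or the strain. All females were 5 weeks old and had been injected with 10 IU of the follicle-stimulating gonadotrophin PMSG. Oocytes enclosed in cumulus cells were taken 46 hours later in medium with 5 µM milrinone, which keeps them in meiotic arrest at the germinal vesicle stage, and were then freed of cumulus cells and zona pellucida.

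A full-grown oocyte is transcriptionally silent and lives on mRNA it stored while growing. Musashi proteins (MSI1 and MSI2) and pumilio proteins (PUM2) bind short motifs in 3′ untranslated regions and control translation of the bound mRNA, and DAZL binds U-rich sites and mostly promotes translation during maturation. The Y-box proteins YBX1 and YBX2 coat mRNA with little sequence preference. YBX2 stabilises the maternal pool, and ZAR1, ZAR1L and LSM14B take part in the ribonucleoprotein stores that keep mRNA dormant. ZFP36L2, the protein removed in the knockout, binds AU-rich elements and drives the decay of mRNAs that carry them.

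The 3′ untranslated regions of the members were searched on the transcript strand for TATTTAT, the core of the AU-rich element that ZFP36 proteins bind, and for TGTANATA, the pumilio motif. The search used GENCODE M21 transcripts on the mm10 build that match the accessions in the count table. TATTTAT was found once in Pum2 and at 2 places in Dazl, and in none of Msi2, Ybx1, Ybx2, Zar1 and Lsm14b. It is present in 27.7% of 13799 tested genes with an annotated region. Among genes of like length, 50.4% hold the motif for Pum2 (2861 bases) and 38.7% for Dazl (1852 bases), and 12.7% hold at least as many copies as Dazl. The Msi2 transcript that matches the table has a region of 803 bases, while the longest annotated Msi2 transcript has one of 5310 bases, with 1 copy of TATTTAT (68.0% of genes of that length hold it). The annotated region of Zar1l, at 14 bases, was too short to search. The 4 matches are shown because they are the only places in these annotated regions where the members carry the 7-base core; capitals mark it, and flanks are 10 bases.
Msi2, longest annotated transcript, chr11:88341964-88341990, minus strand: aactttctctTATTTATgaaaagaaaa
Pum2, chr12:8749817-8749843, plus strand: aaagcaaaacTATTTATtgactttctt
Dazl, first site, chr17:50280788-50280814, minus strand: ttgtactttaTATTTATtatttgtcta
Dazl, second site, chr17:50280579-50280605, minus strand: acatatatccTATTTATttggttggga

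The pumilio motif was found at 2 places in the region of Pum2 itself, once in Lsm14b and once in the shorter Msi2 region, and in none of Dazl, Ybx1, Ybx2 and Zar1. The longest annotated Msi2 region holds it at 3 places, the first being the site of the shorter region (61.6% of regions of that length hold it). It is present in 24.5% of all regions searched, and in 45.3%, 24.8% and 17.3% of regions as long as those of Pum2, Lsm14b and Msi2. These sites are shown because they lie in the mRNA of PUM2 and of other repressors of the same group; capitals mark the motif.
Pum2, first site, chr12:8750155-8750182, plus strand: tttatagagaTGTATATAgaattatagt
Pum2, second site, chr12:8750408-8750435, plus strand: tgtacagaatTGTATATActtataattg
Lsm14b, chr2:180035099-180035126, plus strand: tttccttgatTGTAAATAgttatgtgtt
Msi2, chr11:88344448-88344475, minus strand: cttttaaacgTGTATATAatccatgatt

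Total counts per oocyte ranged from 1746007 to 6233840 (medians 4761241 in floxed and 5211210 in knockout), and knockout mouse 1 gave a single oocyte. The mouse was the replicate, so counts of its oocytes were summed and are given as CPM, the count a gene would have if the mouse's total were 1000000. Zfp36l2 itself was low: floxed mice had 3.27 ± 0.934 CPM and knockout mice 2.00 ± 0.806 CPM (SD, n = 4 each). It did not pass the test (edgeR adjusted p = 0.208). The count covers the whole gene, so it does not check the deletion, and every direction below rests on the labels. The 10 oocyte markers summed to 5085 to 6281 CPM in floxed and 5070 to 5673 CPM in knockout mice, with none called. The 14 cumulus and granulosa markers analysed summed to 181.0 to 265.3 CPM and 172.7 to 331.9 CPM, none below 1 CPM in every mouse and 1 lower in the knockout.

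Of the 8 members tested, 2 were lower in knockout oocytes (Msi2 and Zar1l), none was higher and 6 did not pass. The threshold was an adjusted p under 0.05 in edgeR's quasi-likelihood test, with p adjusted over all 15029 genes tested. Over all tested genes 27.6% passed, 14.4% higher and 13.2% lower, as did 27% of the 5782 genes whose mean reached 50 CPM, so 2 of 8 is close to the background. At an unadjusted p under 0.05 in the same edgeR test, these 2 members were lower and none was higher. The share of all genes under that threshold was not computed, so this count has no background here. The median log2 fold change was -0.05 over the members and -0.01 over all tested genes. CPM values are relative and do not show how much mRNA an oocyte held.

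**Figure D1:**
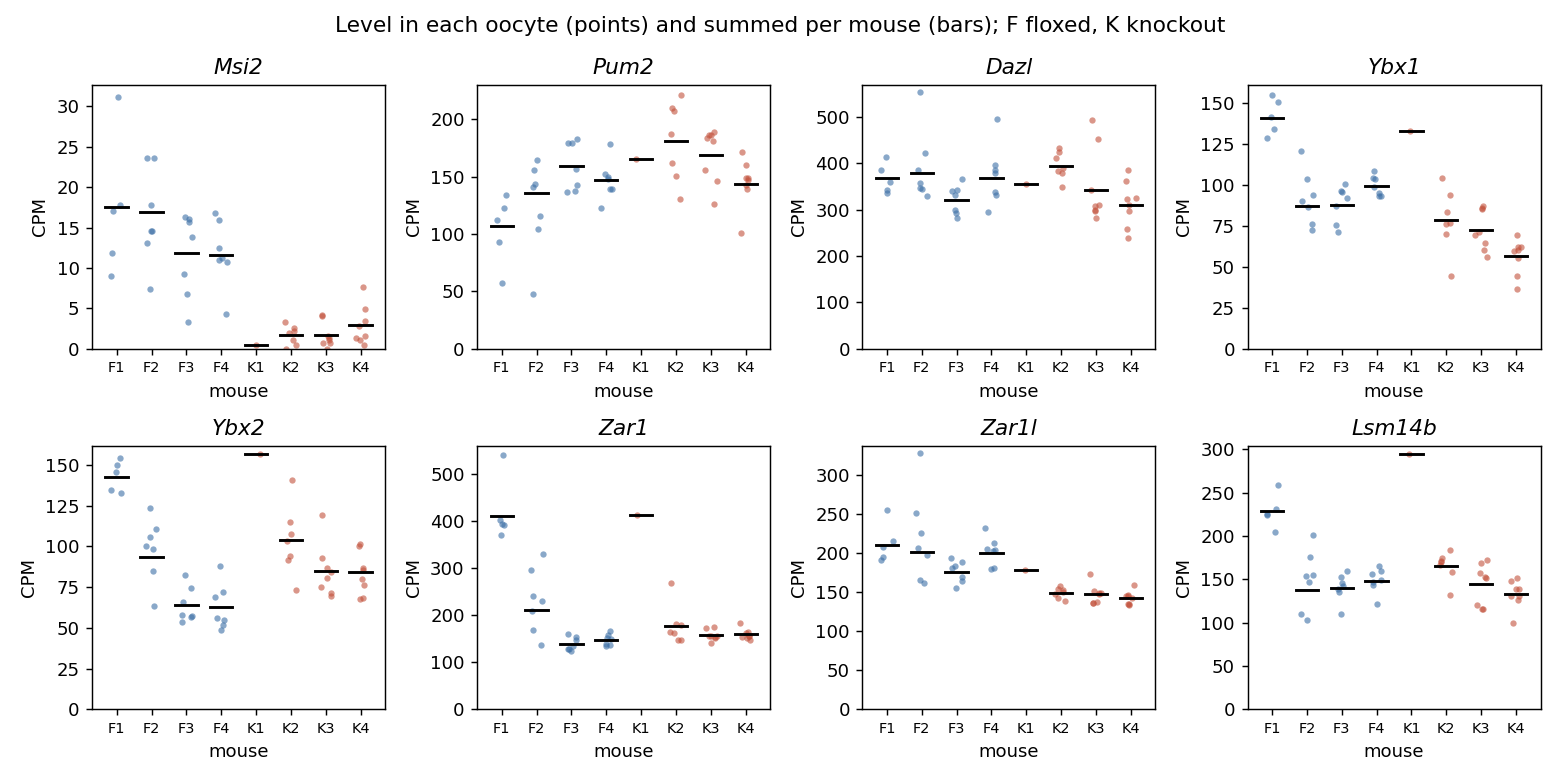
Level of each gene in CPM (vertical axis, from 0) in the 8 mice (F1 to F4 floxed, K1 to K4 knockout); points are single oocytes and black bars the value of the summed counts of a mouse. Msi2 is low in every knockout mouse, and mouse 1 of both genotypes lies above the other mice for Ybx1, Ybx2, Zar1 and Lsm14b.

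Msi2 had the largest difference among the members. Its level was 17.6, 17.0, 11.8 and 11.6 CPM in floxed mice 1 to 4, and 0.462, 1.69, 1.73 and 2.99 CPM in knockout mice 1 to 4. Every knockout mouse lay well below every floxed mouse; groups that do not overlap occurred for 31% of all tested genes. The means were 14.5 ± 3.24 and 1.72 ± 1.03 CPM (SD, n = 4 mice each), an 8.06-fold fall (log2 fold change -3.01, SE 0.43, edgeR adjusted p = 0.00144). The 95% interval of the log2 fold change ran from -3.98 to -2.05.

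Single oocytes showed the fall of Msi2 as well. The 26 floxed oocytes held 13 to 122 counts each (3.27 to 31.1 CPM, median 14.2), and the 24 knockout oocytes 0 to 45 counts (0 to 7.59 CPM, median 1.49). All 24 knockout oocytes were below the floxed median, 18 were below every floxed oocyte, and 6 exceeded the lowest floxed oocyte. No floxed oocyte was at 0, and 2 knockout oocytes were. With counts thinned to 3000000 per oocyte, Msi2 had a count in 23 of 23 floxed and 20 of 24 knockout oocytes. The share per mouse was 100% in each floxed mouse and 100%, 85.7%, 75.0% and 87.5% in knockout mice 1 to 4, a difference that did not pass an exact two-sided permutation test of mice (p = 0.143, the only member tested since the others were found in every oocyte). Most knockout oocytes thus still held some Msi2 counts; knockout mouse 1 contributes a single oocyte.

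Msi2 lies on chromosome 11 (88339382 to 88718513, minus strand, mm10). The antisense gene Gm15893 and the microRNA gene Mir378b overlap it on the opposite strand and the processed pseudogene Gm11510 on the same strand. This overlap is with the whole span of Msi2, and whether it reaches an exon was not examined. Reads of any shared sequence were not told apart, and the cDNA kit does not mark strand. Of the theca, stroma and blood markers, 1 of 2 tested was lower in knockout mice, and the 3 analysed summed to 95.3 to 176.7 CPM in floxed and 21.8 to 36.5 CPM in knockout mice, none below 1 CPM in every mouse. Nearly all of that sum was Pecam1 (150.4 ± 39.9 CPM in floxed mice), and its part in the result was not tested. The sums of the cumulus and granulosa markers, given above, overlapped between the genotypes, but not every single marker did. Cyp11a1 was lower in every knockout mouse than in any floxed mouse (log2 fold change -6.35, edgeR adjusted p = 0.00245). Amhr2 was higher without overlap but did not pass (log2 fold change 1.31, edgeR adjusted p = 0.151). The part of either gene in the result was not tested. After subtraction of each mouse's mean, the genes whose log2(CPM + 1) over the 50 oocytes was most like that of Msi2 among 9689 screened were Son (Pearson r = 0.54), Sclt1 (0.54) and Macf1 (0.54). These values share library and depth, and log2 depth correlated with Msi2 at r = 0.22.

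Zar1l, the relative of the maternal-effect gene Zar1, was lower by 23.8% in the knockout. It lies on chromosome 5 (150507055 to 150518164, minus strand) and overlaps the pseudogene Gm15933 on the same strand, whose reads were not told apart here. Its level was 209.9, 201.5, 175.9 and 200.5 CPM in floxed mice 1 to 4. In knockout mice 1 to 4 it was 178.7, 148.8, 147.4 and 142.3 CPM. The groups overlapped by 1 mouse on each side, since knockout mouse 1 lay above floxed mouse 3. The means were 196.9 ± 14.7 and 154.3 ± 16.5 CPM (SD, n = 4 mice each; log2 fold change -0.39, SE 0.10, edgeR adjusted p = 0.0178). Without floxed mouse 2 or floxed mouse 4 the adjusted p was 0.0504 or 0.0544.

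The level of Zar1l moved with sequencing depth, which differed between the genotypes. Among floxed oocytes its count grew with the total at a slope of 0.54 on log2 scales, where a slope of 1 leaves CPM unchanged, and within mice its log2 level correlated with log2 depth at r = -0.86 (50 oocytes, mouse means subtracted). The 3 genes most like it across oocytes, Cpsf4l (Pearson r = 0.92), Psmd4 (0.92) and Pcgf1 (0.91), were found with this shared depth left in. Among oocytes of 4500000 to 5500000 counts, a range chosen after the data were seen, the 12 floxed oocytes lay between 161.9 and 204.7 CPM and the 12 knockout oocytes between 135.1 and 158.2 CPM. All 12 knockout oocytes were below all 12 floxed ones. The share of all genes that separate in this way was not computed, and oocytes of a mouse are not replicates. Floxed mice 1 to 4 gave 1, 2, 4 and 5 of these oocytes, and knockout mice 2 to 4 gave 6, 3 and 3. Summed per mouse over this range, the log2 fold change was -0.35 (edgeR adjusted p = 0.0158; 4 floxed and 3 knockout mice, since knockout mouse 1 had no such oocyte).

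**Figure D2:**
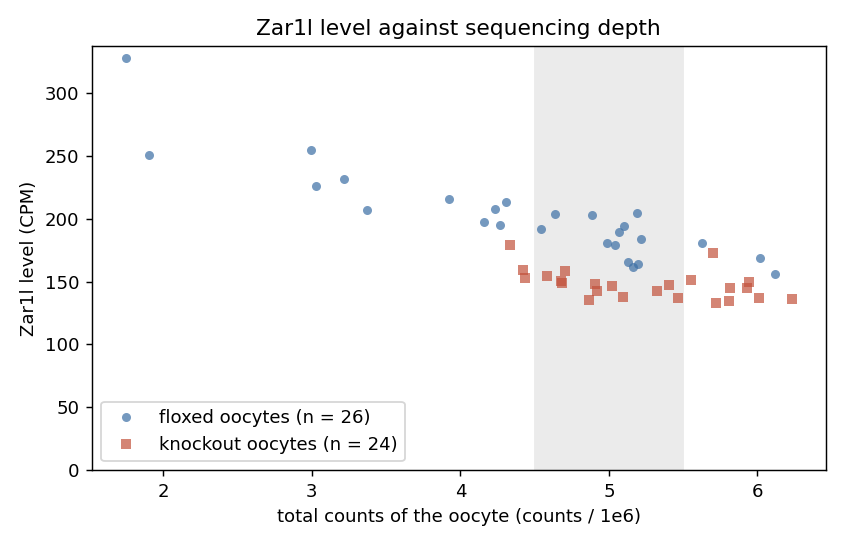
Zar1l level in CPM (vertical axis, from 0) against the total counts of each oocyte (horizontal axis); circles are floxed and squares knockout oocytes, and the grey band marks 4500000 to 5500000 counts. Levels fall with depth in both genotypes, and inside the band every knockout oocyte lies below every floxed oocyte.

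Zar1, needed for the oocyte-to-embryo transition, showed no difference between genotypes that could be told from the spread. Its level was 411.3, 210.7, 138.6 and 146.7 CPM in floxed mice 1 to 4. In knockout mice 1 to 4 it was 412.7, 177.0, 157.8 and 159.3 CPM. Mouse 1 was at 2.49 times the mean of the other 3 mice in floxed and 2.51 times in knockout. The log2 fold change was -0.03 with a wide 95% interval, from -0.96 to 0.89 (edgeR adjusted p = 0.96). The ratio of Zar1 to Zar1l was 1.96, 1.05, 0.789 and 0.733 in floxed and 2.31, 1.19, 1.07 and 1.12 in knockout mice 1 to 4. The mean log2 ratio was 0.37 higher in the knockout, with overlapping groups (exact two-sided permutation of mice, p = 0.429, adjusted p = 0.429 over the 2 paralogue pairs tested). The difference moved with mouse 1: it was 0.67 without floxed mouse 1, with all 4 knockout mice above the 3 floxed (exact permutation adjusted p = 0.0571), and 0.11 without knockout mouse 1 (adjusted p = 0.886). In oocytes of like depth, where knockout mouse 1 has none, it was 0.07 (exact permutation adjusted p = 0.971). Zar1 exceeded Zar1l in 20 of 24 knockout and 10 of 26 floxed oocytes. By mouse, this was 5 of 5, 5 of 7, 0 of 7 and 0 of 7 in floxed mice 1 to 4. In knockout mice 1 to 4 it was 1 of 1, 5 of 7, 7 of 8 and 7 of 8. Oocytes of a mouse are not replicates, and the share of gene pairs with such counts was not computed.

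The Y-box genes did not pass the test singly, and their balance differed between the genotypes without passing after adjustment. Ybx1, expressed in most tissues, had 141.0, 86.95, 88.0 and 99.25 CPM across floxed and 133.0, 78.5, 72.5 and 56.3 CPM in knockout mice 1 to 4 (log2 fold change -0.33, 95% interval -0.92 to 0.26, edgeR adjusted p = 0.384). Ybx2, the germ cell form, had 142.5, 93.3, 64.1 and 62.7 CPM across floxed and 156.3, 103.9, 85.0 and 84.0 CPM in knockout mice (log2 fold change 0.21, 95% interval -0.44 to 0.86, adjusted p = 0.634). Both groups overlapped for both genes. The ratio of Ybx2 to Ybx1 within a mouse was 1.01, 1.07, 0.729 and 0.634 in floxed mice 1 to 4. In knockout mice 1 to 4 it was 1.17, 1.32, 1.17 and 1.49. All 4 knockout mice were above all 4 floxed mice, and Ybx2 exceeded Ybx1 in 22 of 24 knockout and 8 of 26 floxed oocytes. Groups of mice did not overlap for 31% of single genes, and the share of gene pairs that separate was not computed. Oocytes of a mouse are not replicates. The mean ratio was 1.52-fold higher in the knockout (log2 difference 0.61). The exact two-sided permutation p was 0.0286, the smallest that 4 against 4 mice allow, and 0.0571 after adjustment over the 2 pairs. From this smallest p, the adjusted p could fall under 0.05 only if the Zar1 to Zar1l pair reached it too. The adjusted result therefore cannot tell whether the ratio differs between the genotypes.

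**Figure D3:**
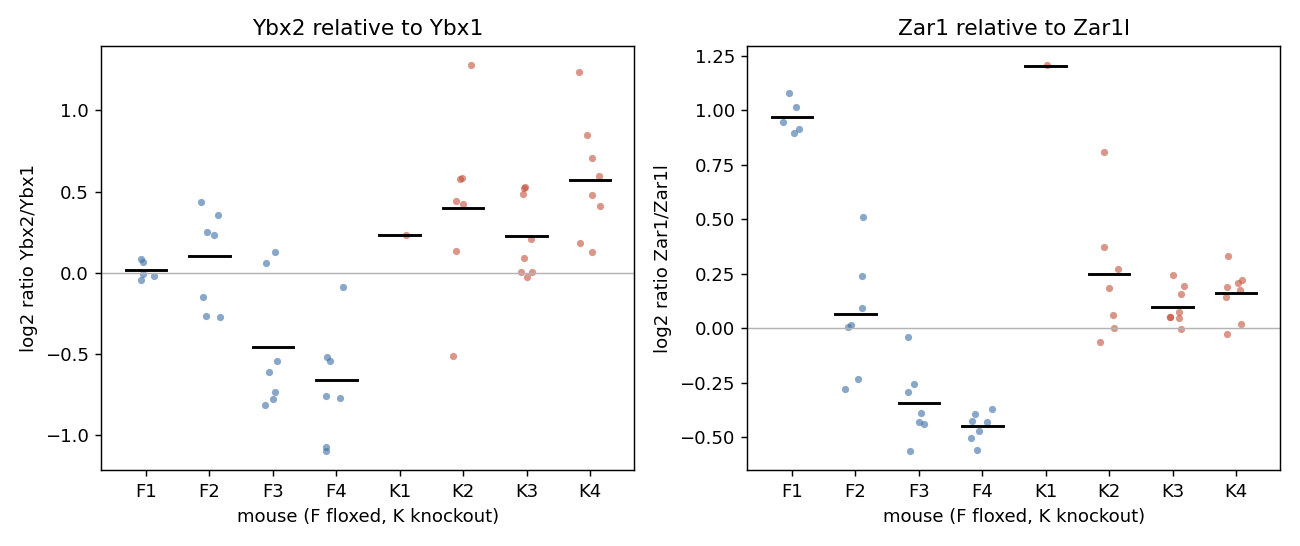
Log2 ratio of Ybx2 to Ybx1 (left) and of Zar1 to Zar1l (right) in the 8 mice (F floxed, K knockout); points are single oocytes and black bars the ratio from the summed counts of a mouse, with 0.5 CPM added to both genes. For Ybx2 to Ybx1 the 4 knockout bars lie above the 4 floxed bars, while for Zar1 to Zar1l mouse 1 of each genotype stands highest.

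Ybx1 was lower once knockout mouse 1 was left out (log2 fold change -0.67, edgeR adjusted p = 0.0275) or mouse 1 of both genotypes (-0.49, adjusted p = 0.0167). More genes passed under both settings than in the main test (2164 higher and 1984 lower of 15029). Without knockout mouse 1, 2538 were higher and 2822 lower of 15454. Without mouse 1 of both genotypes, 3182 were higher and 3549 lower of 15332. With knockout mouse 1 left out, the log2 fold change of Ybx2 was -0.08 (adjusted p = 0.844). Ybx1 lies on chromosome 4 (119277981 to 119294604) and 1 annotated pseudogene is named for it. How reads shared with such copies were treated is not known here, so its level is uncertain. Ybx2 lies on chromosome 11 (69935796 to 69941605).

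Pum2, a sequence-specific repressor (chromosome 12, 8674134 to 8752581), had 107.4, 135.9, 159.4 and 147.3 CPM across floxed and 165.5, 181.0, 169.0 and 143.8 CPM in knockout mice 1 to 4. The groups overlapped, with knockout mouse 4 below floxed mice 3 and 4. The log2 fold change was 0.22 (95% interval -0.09 to 0.53, edgeR adjusted p = 0.266). Of single oocytes, 8 of 24 knockout cells exceeded every floxed cell, all from knockout mice 2 and 3. The highest cells of knockout mice 1 and 4 were at 165.5 and 171.4 CPM. Pum2 CPM rose with depth within mice (r = 0.545), and floxed oocytes had the lower median depth. When single mice were left out, the log2 fold change lay between 0.07, without floxed mouse 1, and 0.30.

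Dazl, a germ cell RNA-binding protein (chromosome 17, 50279395 to 50293636), had the narrowest interval of the members that did not pass. Its level was 369.2, 379.6, 321.9 and 367.8 CPM across floxed and 355.3, 394.8, 342.6 and 310.4 CPM in knockout mice 1 to 4. The log2 fold change was -0.07 (95% interval -0.28 to 0.14, edgeR adjusted p = 0.599), which as a percentage is a change between -17.8% and 9.88%. Within mice, oocytes differed in Dazl more than in most genes of its level: the SD of log2(CPM + 1) on thinned counts averaged 0.18 over 7 mice, and 91.8% of 329 genes of like level had a smaller one.

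Lsm14b, an Sm-like protein of the stored ribonucleoprotein (chromosome 2, 180024987 to 180035465), had 228.8, 138.2, 140.1 and 148.5 CPM across floxed and 294.5, 165.8, 144.9 and 133.3 CPM in knockout mice 1 to 4. The groups overlapped fully (log2 fold change 0.13, 95% interval -0.46 to 0.72, edgeR adjusted p = 0.747). Its relative Lsm14a was at 301.7 ± 15.3 and 309.6 ± 17.8 CPM (adjusted p = 0.998). The third Y-box gene, Ybx3, was at 213.8 ± 65.7 and 216.2 ± 54.6 CPM (adjusted p = 0.959). Both are named as relatives of members, outside the rule for named genes.

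**Figure D4:**
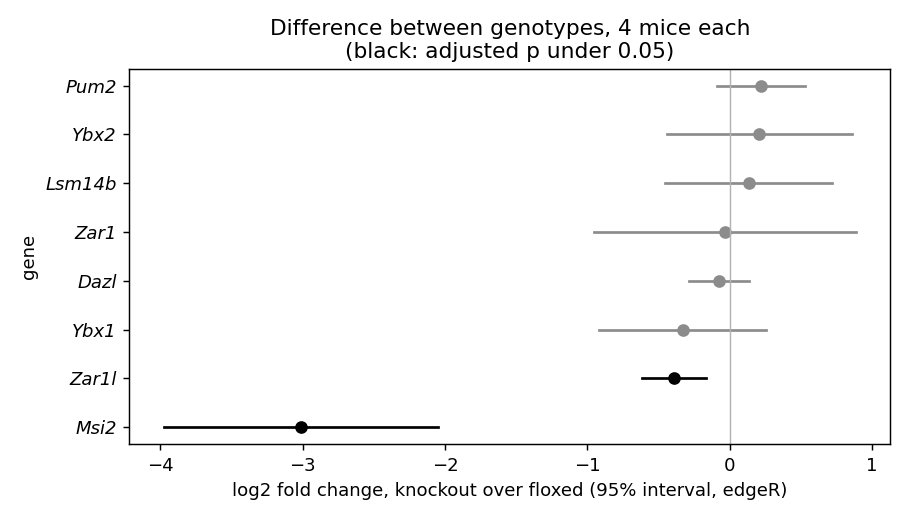
Log2 fold change of each member (horizontal axis, knockout over floxed) with its 95% interval from edgeR on 4 mice each; black marks an adjusted p under 0.05. The interval of Msi2 lies far from 0 and that of Zar1l near it, and the intervals of the other 6 include 0.

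Mouse 1 of both genotypes stood apart for 4 members. All 5 oocytes of floxed mouse 1 lay above all 21 other floxed oocytes for Ybx1 (128.7 to 155.1 CPM against 71.1 to 120.8), Ybx2 (132.6 to 154.1 against 48.5 to 123.6), Zar1 (369.8 to 539.1 against 124.2 to 329.3) and Lsm14b (205.0 to 259.1 against 102.7 to 201.0). The single oocyte of knockout mouse 1 was also above the other 23 knockout oocytes for these genes. The share of all genes with such a separation of oocytes was not computed. Counting Zar1l, mouse 1 was the highest mouse in both genotypes for 5 of 8 members, where 20.7% of all tested genes showed this. The cumulus and granulosa markers were lowest in mouse 1 of each genotype, at 181.0 and 172.7 CPM in sum. The labels do not say that a mouse number marks a shared day or litter, and the part of these values in the results was not tested.

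**Figure D5:**
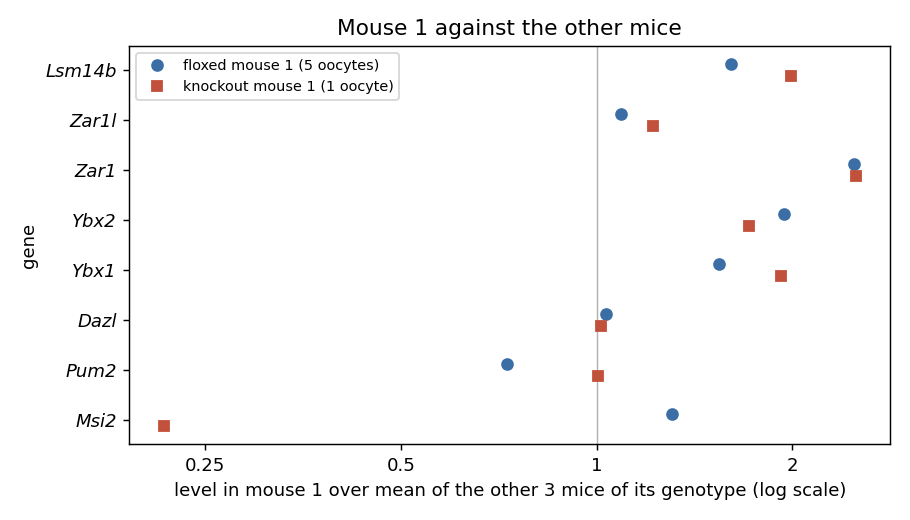
Level of each member in mouse 1 divided by the mean of the other 3 mice of its genotype (horizontal axis, log scale), for floxed mouse 1 (circles, 5 oocytes) and knockout mouse 1 (squares, 1 oocyte). Zar1 lies near 2.5 in both genotypes and Dazl near 1, while Msi2 lies above 1 in floxed and below 1 in knockout.

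Per length, the members lay between the 46.9th and the 99.3rd percentile of genes in floxed mice. In floxed mice Zar1l had 220.0 ± 16.4 CPM per kilobase of transcript, Zar1 158.7 ± 89.0 and Dazl 120.9 ± 8.64 (SD, n = 4 mice), which placed them above 99.3%, 98.1% and 96.1% of 14035 genes with a length. Zar1 and Dazl, and Zar1 and Zar1l, overlapped in their ranges over mice, while Dazl and Zar1l did not. Lsm14b (64.7 ± 17.2), Ybx1 (63.8 ± 15.6) and Ybx2 (54.2 ± 22.3 CPM per kilobase) did not differ beyond their spread. They lay above 87.5%, 87.2% and 84.4% of genes. Pum2 followed at 22.1 ± 3.57 (above 65.9%) and Msi2 at 7.81 ± 1.75 CPM per kilobase (above 46.9%), without overlap between them or with the genes above. The Msi2 value uses a transcript of 1855 bases and would be lower for the annotated one of 6436 bases, and Zar1l is annotated almost without untranslated sequence. Counts of 7 of the 8 members grew less than in proportion to depth across floxed oocytes. Regression of log2 count on log2 total gave slopes of 0.15 for Zar1, 0.74 for Dazl and 0.86 for Msi2, and 1.74 for Pum2, the exception.

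Across the 50 oocytes, with mouse means subtracted, the members that varied most alike were Ybx1 and Lsm14b (Pearson r of log2(CPM + 1) 0.74, and 0.70 after removing the trend with log2 depth). Zar1 and Zar1l had r = 0.64, which was 0.10 after removing depth, and Pum2 and Dazl had r = 0.23, which was 0.60. These are descriptions over cells that share mice and library preparation. The least variable member on thinned counts was Zar1l: its SD of log2(CPM + 1) within mice averaged 0.12, and 10.8% of 960 genes of like level had a smaller one. Thinning left out the 3 shallowest oocytes, which held the highest floxed Zar1l levels (254.9, 250.9 and 327.6 CPM). The spread with these oocytes included was not computed, so the low spread of Zar1l is known only without them. The SD of Msi2 averaged 0.68, where the median of 704 genes of like level was 0.78.

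Among 81 other genes of maternal mRNA control, taken from a list of repressor partners, other RNA-binding regulators and translationally controlled mRNAs, 78 were tested. Of these, 18 rose, 4 fell and 56 did not pass, together 28.2%, beside 27.6% of all genes. Their median log2 fold change was 0.02. The split between directions depends on the scaling and on single mice: 7 genes were lower with DESeq2's size factors and 14 without mouse 1 of both genotypes. Without floxed mouse 1, floxed mouse 4 or knockout mouse 1 the number lower was 11, 2 or 8. The numbers lower over all genes in these settings were 2521 of 15381, 1219 of 15403 and 2822 of 15454. Over all tested genes the number lower also moved, from 1984 of 15029 to 3549 of 15332 without mouse 1 of both genotypes. Without knockout mouse 2 or 3 the number higher was 10 or 11. The numbers higher over all genes were then 1359 of 15282 and 1374 of 15232, against 2164 of 15029 in the main test.

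Partners and relatives of the members had 5 higher and 1 lower of 21 tested, together 28.6%, close to the 27.6% of all genes. Ddx6, the helicase that binds LSM14 proteins in repressed mRNA stores, rose from 51.3 ± 5.97 to 104.6 ± 9.43 CPM (log2 fold change 0.99, SE 0.13, edgeR adjusted p = 0.00112). Pabpc1, the somatic poly(A)-binding protein, rose from 17.7 ± 5.25 to 80.3 ± 7.08 CPM (adjusted p = 0.000322), and Edc3, an enhancer of decapping, from 1.603 ± 1.498 to 11.9 ± 2.41 CPM (log2 fold change 2.82, adjusted p = 0.00739). Without floxed mouse 3 the log2 fold change of Edc3 was 3.72 (adjusted p = 0.00155). Other RNA-binding regulators had 9 higher and 2 lower of 39 tested, together 28.2%, also close to the share of all genes. Syncrip rose from 6.53 ± 2.59 to 35.4 ± 5.27 CPM and Rc3h2, a roquin that promotes mRNA decay, from 5.79 ± 3.54 to 36.2 ± 15.5 CPM. The splicing and stability regulator Ptbp1 rose from 107.4 ± 9.42 to 144.9 ± 10.7 CPM, though the call was lost without knockout mouse 2, 3 or 4 (adjusted p 0.0517, 0.0868 and 0.0843) and in oocytes of like depth (0.0825). Nanos2, known as a germ cell repressor, fell from 112.8 ± 17.5 to 58.9 ± 10.1 CPM (adjusted p = 0.00257).

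Of 18 mRNAs whose translation is reported to be controlled in oocytes, 4 rose and 1 fell, together 27.8%, close to the 27.6% of all genes. Tex19.1 rose from 145.6 ± 15.9 to 264.2 ± 19.6 CPM (log2 fold change 0.82, edgeR adjusted p = 0.000589), Ddx4, the germ cell helicase, from 95.4 ± 9.32 to 187.3 ± 21.1 CPM (adjusted p = 0.000643), and Sycp3, of the synaptonemal complex, from 46.6 ± 7.64 to 87.9 ± 4.97 CPM (adjusted p = 0.00249). Mos, which encodes a kinase that maintains metaphase II arrest, fell from 314.6 ± 19.5 to 258.6 ± 17.1 CPM (adjusted p = 0.0159). In oocytes of 4500000 to 5500000 counts, Mos had a log2 fold change of -0.19 and did not pass (adjusted p = 0.113).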

How the data were processed

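Per the labels' protocols, RNA of single oocytes was made into cDNA by SMARTer Ultra Low Input chemistry; such kits amplify by PCR and, as background, mark neither molecules nor strand. Per the submitters' processing notes, reads were aligned with STAR to mm10; the sources used here do not give the STAR version, the counting tool or the treatment of duplicate and shared reads. The authors deposited whole-number counts per gene for 16614 genes, which are not normalized. Columns were matched to samples by header name, or by title for knockout oocyte 8 of 3 mice. All 150 pairs of oocytes from 1 mouse differed beyond sampling noise (chi-square per degree of freedom 5.41 to 29.8), so none was treated as a copy.

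Counts were summed per mouse and compared by the robust quasi-likelihood test of edgeR 4.0.16 under R 4.3.3 (TMM factors, a filterByExpr minimum of 10 counts, Benjamini-Hochberg adjustment over 15029 genes). The standard error is the log2 fold change divided by the square root of F. The biological coefficient of variation was 35.4%. Paralogue ratios and detection shares were compared by exact permutation of mice (70 arrangements); the planned Msi1 to Msi2 ratio was not computed. Thinning to 3000000 counts left out 3 oocytes. Intervals cover spread between mice and counting only, since PCR copies are not independent. Alternatives used DESeq2 1.42.0 and limma 3.58.1. Lengths and 3′ regions come from GENCODE M21 protein-coding transcripts; regions of like length lie within 0.8 to 1.25 times the member's. Genes of like level lie within 0.25 of the member in mean log2(CPM + 1).

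The members and lists were chosen with earlier results of these data known. Named genes were the members, the called genes of smallest p (at most 4) from each group of the mRNA control list, the 3 genes most like each called member of 10 CPM or more, and Zfp36l2; 1 gene that this rule names is not reported here. The labels do not say that mouse numbers pair the samples, so the main test left them unpaired. The check is given with the alternatives and does not exclude a shared effect of the number.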

Additional observations from a re-analysis of the deposited data

Results flagged for a closer look

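Over the 46 sets of 4 mice examined, 5 held a mouse far from the other 3 by Dixon's test at the 95% level, which chance gives in about 1 of 20. Zar1 in knockout mouse 1 was at 412.7 CPM, where the other knockout mice lay between 157.8 and 177.0 CPM. The log2 ratio of Zar1 to Zar1l was 1.21 in that mouse and 0.0981 to 0.25 in the others. Lsm14b in floxed mouse 1 was at 228.8 CPM against 138.2 to 148.5 CPM. Mos in knockout mouse 1 was at 284.2 CPM against 248.5 to 251.0 CPM, still below every floxed mouse. Sycp3 in floxed mouse 2 was at 35.2 CPM against 49.2 to 51.3 CPM, without overlap with the knockout. Knockout mouse 1 is a single oocyte.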

How the results depend on the processing

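Msi2 was lower under all 16 alternatives, with log2 fold changes from -3.43 to -2.61 and adjusted p of at most 0.00794. Zar1l was lower in all 16 (-0.52 to -0.35) and passed in 14. No member was higher under any alternative, and the number of members lower was 1 to 3 when single mice were left out. Directions that turned belonged to members that did not pass: Dazl at 0.0548 and Lsm14b at -0.0409 in oocytes of like depth, Lsm14b at -0.0293 without mouse 1 of both genotypes, and, leaving out single mice, Lsm14b from -0.23 to 0.27, Zar1 from -0.55 to 0.34 and Ybx2 from -0.0797 to 0.44. The log2 difference in the Ybx2 to Ybx1 ratio lay between 0.47 and 0.73 over 11 alternatives, with adjusted p from 0.0571 to 0.171. The smallest p the permutation allows was 0.0286 in each, so this pair alone could not pass after adjustment. Of the control genes named here, 9 kept their call under all 16, and Ptbp1 and Mos did not. Of the mRNA control genes, 10 to 18 were higher and 2 to 11 lower when single mice were left out; 7 were lower with DESeq2's size factors, 9 with DESeq2, 13 with the mouse number as a replicate block and 14 without mouse 1 of both genotypes; the cause was not tested. Over all genes the numbers lower under these settings were 2067, 2724, 2947 and 3549, against 1984. Same-numbered mice deviated together at r = 0.316, -0.004, 0.248 and 0.18 for numbers 1 to 4, not above 0.1 for each, so the numbers were not taken as pairs; both mice of numbers 1 and 3 correlated best with their own number, and neither mouse of number 2 did. With the replicate block, 2 members were lower and none higher, and the edgeR adjusted p was 0.0627 for Ybx1 and 0.0588 for Ybx2. The block lowered the SE of the log2 fold change from 0.41 to 0.079 for Zar1 and from 0.26 to 0.10 for Lsm14b. For Ybx2 the SE went from 0.29 to 0.088, and for Ybx1 from 0.26 to 0.14. Zar1 and Lsm14b still did not pass (edgeR adjusted p = 0.839 and 0.517). The change in SE over all genes was not computed, and the source of the smaller SE was not tested. Depth limits Msi2 most, with 3 or fewer counts in 5 knockout oocytes.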
